A study of Mus musculus with 35 samples.

Results

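The natriuretic peptide system of the mouse is encoded by 3 peptide genes and 3 receptor genes, and these 6 genes were picked by name out of the 55356 genes of the count table. The peptide genes are *Nppa* (atrial natriuretic peptide, ANP), *Nppb* (B-type natriuretic peptide, BNP) and *Nppc* (C-type natriuretic peptide, CNP). The receptor genes are *Npr1*, *Npr2* and *Npr3*, which encode NPR-A, NPR-B and NPR-C. All 6 were measured in 29 RNA-seq libraries from adult C57BL/6J mice, with no treatment or gene alteration given. The libraries form 10 groups of one tissue and sex, namely female and male brain, cerebellum, heart and colon, female gonad (ovary) and male gonad (testis). Each group held 3 libraries except male heart, which held 2. Ribosomal RNA had been removed and the libraries kept the strand. The age in weeks and the animals behind each library are not given in the sources used here, so each P measures only the spread between these libraries, which may be technical in part.

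ANP and BNP are hormones of heart muscle cells. They are released when the heart wall is stretched, and they act through NPR-A on kidney, vessels and other tissues to lower blood pressure and volume. CNP acts through NPR-B and works mostly near the cells that make it, as in growing cartilage, the ovarian follicle and parts of the nervous system. NPR-A and NPR-B are guanylyl cyclases, which make the second messenger cyclic GMP when the peptide binds. NPR-C lacks that domain, binds all 3 peptides and removes them from the circulation, for which it is called the clearance receptor. In the adult heart, atrial muscle normally makes far more ANP than ventricular muscle.

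Coordinates are on mouse genome GRCm38.p6 and come from the deposited annotation, which combines loci built from long reads (Iso-seq) with ENSEMBL genes. *Nppb* (ENSMUSG00000029019, chr4:147985788-147987205, plus strand, 3 exons) and *Nppa* (Iso-seq locus PB.8867, ENSMUSG00000041616, chr4:148000746-148002072, plus strand, 3 exons) lie next to each other, 13540 bases apart. *Nppc* (PB.311, ENSMUSG00000026241, chr1:86666302-86670573, minus strand) also had 3 exons. *Npr1* (PB.7782, ENSMUSG00000027931, chr3:90450592-90466307, minus strand) was covered by 6 Iso-seq transcripts of 18 to 23 exons. *Npr2* (PB.8277, ENSMUSG00000028469, chr4:43631470-43651236, plus strand) was covered by 2 Iso-seq transcripts of 21 to 22 exons, of which the one that reached farthest began 465 bases upstream of the GENCODE gene. *Npr3* (ENSMUSG00000022206, chr15:11839896-11907287, minus strand) had 5 ENSEMBL transcripts of 3 to 9 exons. So 4 of the 6 genes were counted on Iso-seq loci, and *Nppb* and *Npr3* were counted on ENSEMBL genes.

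The sequences just upstream of the RefSeq starts of *Nppa* and *Nppb* are shown because both genes were highest in heart, and because their promoters are textbook examples of control by the cardiac factors GATA4 and NKX2-5. The bases are those of RefSeq on GRCm38.p6, plus strand, 5′ to 3′, from chr4:148000472-148000721 for *Nppa* and chr4:147985801-147985830 for *Nppb*. Positions count back from the RefSeq start of each gene, so that the *Nppa* run covers positions -250 to -1 and the *Nppb* run covers positions -99 to -70. Only a short run is shown for *Nppb*, since the deposited gene model starts 112 bases upstream of the RefSeq start, and the run shown lies within the first exon of that model. Capitals mark 3 of the motifs searched on either strand. The first is GATAA, a core bound by factors of the GATA4 family. The next is AAGTG, the core of the NKX2-5 element. The last is TATAAA, a common form of the core promoter element of that name.
Nppa: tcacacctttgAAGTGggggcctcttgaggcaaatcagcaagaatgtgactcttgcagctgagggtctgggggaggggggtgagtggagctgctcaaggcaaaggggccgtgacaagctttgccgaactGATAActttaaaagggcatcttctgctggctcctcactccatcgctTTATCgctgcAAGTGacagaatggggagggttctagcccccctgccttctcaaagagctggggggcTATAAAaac
Nppb: cagctGATAAatcagaGATAAccccacccc

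GATAA was found at positions -121 and -75 of *Nppa* (the latter on the minus strand) and at -94 and -83 of *Nppb*, and in none of the other 4 promoters. It occurs in 22.6% of the 32851 RefSeq promoters of the same length. AAGTG was found at -239 and -65 of *Nppa* and in no other of the 6 promoters, against 40.7% of all promoters. TATAAA was found in all 3 peptide genes, at -9 in *Nppa*, -31 in *Nppb* and -29 in *Nppc*, and in none of the receptor genes, against 12.4% of all promoters. The *Nppa* match lies 33 bases before the start of its deposited Iso-seq locus, which begins downstream of the RefSeq start. The motif CATTCC (M-CAT, the element of TEAD factors) was found once, at -105 of *Nppb* on the minus strand, against 12.6% of all promoters. All the *Nppb* matches fall inside its deposited model. These matches describe letters in a window and do not show that a factor binds there.

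The libraries held 11742417 to 36194255 counts. Levels are given as FPKM, computed here from the deposited counts, the library total and the union of a gene's exons, and differences are log2 values from edgeR's quasi-likelihood test with TMM normalization, with P adjusted by Benjamini-Hochberg over the 29911 genes tested and called under 0.05. The labels were checked with marker lists. Counts scaled to the library total (CPM) and summed over a list were used. Summed CPM of cardiomyocyte markers was 23190 to 55370 in heart and at most 373.4 elsewhere. Cerebellar neuron markers summed to 1388 to 2216 in cerebellum and 118.3 to 197.2 in brain, colon epithelial markers to 14480 to 26760 in colon and at most 155.2 elsewhere, and male germ cell markers to 9643 to 11700 in testis and at most 37.44 elsewhere. Granulosa and cumulus cell markers summed to 619.4 to 1044 in ovary and at most 64.87 elsewhere. The 6 oocyte markers went against the label as a sum (66.76 to 134.6 in ovary, 300.5 to 570.2 in heart) through *Gdf9*, which averaged 176.5 FPKM in heart and 32.5 in ovary, while the other 5 had their highest mean in ovary. In such bulk samples, fewer cells of a type and less RNA per cell cannot be told apart. The TMM factors differed by tissue (0.855 to 0.874 in testis, 1.3 to 1.45 in ovary, 0.604 to 0.711 in 4 heart libraries), so that FPKM on library totals and the tested log2 difference can disagree for small differences.

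The library labelled female heart replicate 3 stood apart from the other 4 heart libraries. The labels give each library a code, which was 8 for this library and 13, 43, 63 and 53 for female replicates 1 and 2 and male replicates 1 and 2, and its meaning is not stated. Its TMM factor was 1.12. Of 20388 genes with at least 10 counts in a heart library, 13799 (67.7%) were highest in it, and 653 were at 10 times the highest other heart library or more. Of 10 atrial marker genes, 9 were above all other heart libraries, with a summed CPM of 3222 against 77.73 to 177.6. The atrial light chain *Myl7* was at 1989 FPKM against 6.657 to 76.35, and *Bmp10*, a growth factor of the atrium, was at 16.01 against 0 to 0.009158. The ion channel gene *Kcna5*, also on the atrial list, was below the others (0.9133 against 1.904 to 3.309). Of 7 ventricular markers, 5 were below the other hearts and 0 above, with a summed CPM of 9989 against 20990 to 28270, and all 6 measured cardiomyocyte markers were below. Markers of other cells were also higher in this library. Adipocyte markers (6 of 6 above the other hearts) summed to 1726 CPM against 0.1234 to 5.626, B and plasma cell markers (4 of 4) to 391.8 against 2.57 to 7.182, lung epithelial markers (4 of 4) to 50.02 against 0 to 0.4084, and fibroblast markers (4 of 5) to 2207 against 857.3 to 1264. Smooth muscle and pericyte markers (4 of 6) summed to 677.7 against 357.1 to 496.5, and of 7 endothelial and endocardial markers 3 were above the other hearts (623.1 against 351.3 to 683.7). The adipocyte, B and plasma cell and lung lists were added after the library was seen. Their part in the results was not tested. Values without this library stand beside the main heart results below.

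*Nppa* and *Nppb* were close to exclusive to the heart. Across the 24 libraries of other tissues, *Nppa* had 179 counts in all and *Nppb* had 14, against 60431 and 12062 in the 5 heart libraries. *Nppa* stood at 55.67, 90.09 and 2770 FPKM in female heart replicates 1, 2 and 3 and at 76.69 and 41.05 in male heart replicates 1 and 2. Without female heart replicate 3, which alone held 55460 of the counts, the heart libraries lay within 41.05 to 90.09, and none of the 24 other libraries was above 1.992. The heart mean was 606.6 ± 1209 FPKM (SD, n = 5) with that library and 65.87 ± 21.79 (n = 4) without it. Ranked by FPKM within a library, *Nppa* was gene 12 in female heart replicate 3 and gene 921, 580, 657 and 1159 in female replicates 1 and 2 and male replicates 1 and 2.

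Outside the heart, *Nppa* was low and sparse. In cerebellum it ran from 0.1467 to 1.992 FPKM (median 0.6307), from 3 to 45 counts a library. In brain it ran from 0 to 0.4659 (median 0.1616), and in colon from 0.0702 to 0.7148 (median 0.2229). The ovary libraries were at 0.1994, 0.4335 and 0.0854 and the testis libraries at 0.1685, 0.2326 and 0.2339. These 5 tissues overlapped, and none of the 10 comparisons among them was called, for example cerebellum against brain (1.71 on the log2 scale, adjusted P = 0.254). *Nppa* was called in all 5 comparisons with heart, by 8.68 to 10.6, or by 7.16 to 9.03 without female heart replicate 3.

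*Nppb* was the steadier of the pair. It stood at 108.2, 159.4 and 123.2 FPKM in female heart and at 152.9 and 138.8 in male heart. On library totals, female heart replicate 3 lay inside the range of the others. With TMM factors, 1.12 for this library and 0.604 to 0.711 for the other hearts, it lay below them. The heart mean was 136.5 ± 21.06 (SD, n = 5) and 139.8 ± 22.75 (n = 4) without that library. Of the other 24 libraries, 17 had no *Nppb* count, and the highest was female colon replicate 1 with 4 counts (0.4362 FPKM). All 3 ovary libraries were at 0, which allows up to 0.1368 to 0.213 FPKM a library (3 counts, counting error only), so *Nppb* was at least 640.8-fold higher in heart than in ovary. *Nppb* was called in the 5 pairs with heart and in 0 of the 10 pairs without it. The ratio of *Nppa* to *Nppb* in FPKM was 22.5 in female heart replicate 3 and had a median of 0.5142 over the 5 heart libraries, with a lowest value of 0.2958. In the other 4 heart libraries *Nppb* was 1.77 to 3.38 times *Nppa*.

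**Figure D1:**
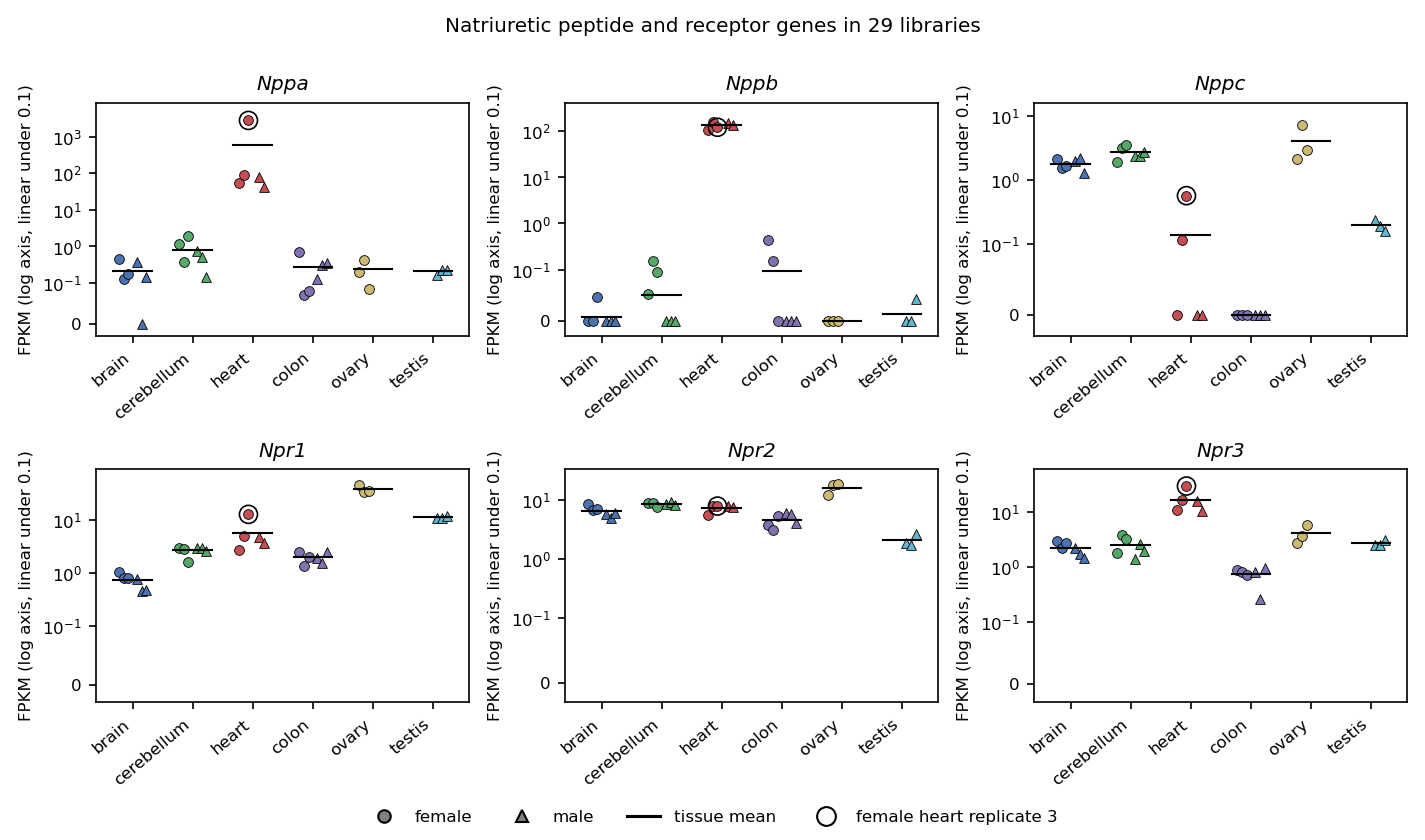
FPKM of the 6 genes in each of the 29 libraries (vertical axis, logarithmic above 0.1 and linear below), by tissue, with circles for female and triangles for male libraries and a line at the tissue mean. *Nppa* and *Nppb* sit at 41.05 FPKM or more in every heart library and at 1.992 or less elsewhere, and *Nppc* lies at 0 in all 6 colon libraries. On this scale of library totals, the ringed female heart replicate 3 lies far above the other hearts for *Nppa* but among them for *Nppb* and *Npr2*.

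*Nppc* had 0 to 14 counts in the heart libraries and none in colon. Its highest levels were in ovary, at 2.093, 7.116 and 2.965 FPKM in replicates 1, 2 and 3 (39, 183 and 86 counts). Cerebellum ran from 1.926 to 3.502 (median 2.569) and brain from 1.269 to 2.22 (median 1.796). Testis was low, at 0.2381, 0.1878 and 0.1574, with 5 to 7 counts a library. In heart, 3 libraries had no count, female heart replicate 2 had 3 (0.1159 FPKM) and female heart replicate 3 had 14 (0.5644). All 6 colon libraries were at 0, which allows up to 0.1537 to 0.2473 FPKM a library, so *Nppc* was at least 16.4-fold higher in ovary, 10.8-fold in cerebellum and 7.22-fold in brain than in colon. The ovary bound falls to 10.2-fold without female ovary replicate 2.

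The first 3 tissues in this order were not called apart with TMM factors. Ovary and cerebellum differed by 0.33 ± 0.443 (log2 ± SE, adjusted P = 0.584), and without female ovary replicate 2 the difference turned to -0.38 with cerebellum the higher on the FPKM mean (2.678 against 2.529). Cerebellum and brain differed by 0.44 ± 0.372 (adjusted P = 0.451). Ovary and brain differed by 0.77 ± 0.44 (adjusted P = 0.144), but on library totals ovary was called higher by 1.18 (adjusted P = 0.0442). Brain was above testis by 2.97 ± 0.58 (adjusted P = 0.00011), with no overlap of their libraries. Testis against heart passed narrowly (adjusted P = 0.0494), and their libraries overlapped through female heart replicate 3 alone (other hearts at most 0.1159). It did not pass on library totals (adjusted P = 0.0535), without the filter on low counts (0.0798), with the replicate number as a block (0.0515), when adjusted over genes and pairs together (0.0558) or when any of 6 of the 8 libraries was left out (0.0569 to 0.132), and its adjusted P was 0.00892 without female heart replicate 3.

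Among the receptors, *Npr1*, the receptor of ANP and BNP, was highest in the gonads. The ovary libraries stood at 45.47, 33.95 and 36.05 FPKM and the testis libraries at 11.06, 10.78 and 12.02. In heart it was at 2.739, 4.92 and 12.78 in female and at 4.872 and 3.665 in male libraries, with female heart replicate 3 the highest, and the mean was 5.794 ± 4.007 (SD, n = 5) with it and 4.049 ± 1.049 (n = 4) without. Cerebellum ran from 1.611 to 3.007 (median 2.904), colon from 1.334 to 2.527 (median 1.957) and brain from 0.452 to 1.044 (median 0.7827).

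Every step of that order was called with TMM factors. Ovary was above testis by 1.12 ± 0.266 (adjusted P = 0.000663), testis above heart by 0.93 ± 0.235 (adjusted P = 0.0011) and heart above cerebellum by 1.49 ± 0.202 (adjusted P = 4.52e-07). Colon was above brain by 1.33 ± 0.204 (adjusted P = 2.66e-06). Cerebellum was above colon by 0.46 ± 0.196 (adjusted P = 0.041), but this was not called with RLE size factors (0.25, adjusted P = 0.296), DESeq2 (0.25, adjusted P = 0.298), library totals (adjusted P = 0.135) or no filter on low counts (adjusted P = 0.104), nor when any of 8 of the 12 libraries was left out (0.0513 to 0.119). The libraries of testis and heart, of heart and cerebellum, and of cerebellum and colon overlapped, while those of ovary and testis and of colon and brain did not. Testis and heart overlapped through female heart replicate 3 alone, since the other hearts were at 4.92 or less and testis at 10.78 or more. With TMM factors *Npr1* was the only member called in all 15 tissue pairs, cerebellum against colon among them. Without female heart replicate 3, testis was above heart by 1.14 and heart above cerebellum by 1.29, both still called. In ovary and testis, markers of theca and Leydig cells, the steroid-making cells, were also high (summed CPM of 6555 to 8935 and 1717 to 2292, at most 43.81 elsewhere), and their part in the *Npr1* level was not tested.

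*Npr2*, the receptor of CNP, was the most evenly spread of the 6. Ovary was highest, at 12.04, 18.11 and 18.78 FPKM. Cerebellum ran from 7.784 to 9.183 (median 8.682), brain from 5.002 to 8.599 (median 6.504) and colon from 3.147 to 5.987 (median 4.723). Heart was at 5.694, 8.06 and 7.928 in female and at 8.019 and 7.775 in male libraries. For this gene, female heart replicate 3 lay among the other hearts on library totals and below them with TMM factors. Testis was lowest, at 1.848, 1.746 and 2.663.

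Ovary was above cerebellum by 0.64 ± 0.182 (adjusted P = 0.00426) and heart above brain by 0.66 ± 0.162 (adjusted P = 0.00102), or by 0.74 without female heart replicate 3. On library totals heart was above brain by 0.22 and was not called (adjusted P = 0.244). Brain was above colon by 0.63 ± 0.155 (adjusted P = 0.000881) and colon above testis by 0.81 ± 0.198 (adjusted P = 0.000786). The order of heart and cerebellum also depended on the scale. The fit with TMM factors put heart higher by 0.39 ± 0.162 (adjusted P = 0.0414, or by 0.47 without female heart replicate 3, adjusted P = 0.0124), whereas on library totals cerebellum was higher by 0.18 and was not called. The call was also lost without the filter on low counts (adjusted P = 0.0661), with the replicate number as a block (0.0599) and when any of 8 of the 11 libraries was left out (0.0514 to 0.122). Ovary and heart were not called apart with TMM factors (0.25 ± 0.193 higher in ovary, adjusted P = 0.323). Brain against cerebellum was also not called (0.26 ± 0.153, adjusted P = 0.228). On library totals both pairs were called, with ovary above heart by 1.11 (adjusted P = 1.17e-05) and cerebellum above brain by 0.40 (adjusted P = 0.049). With TMM factors *Npr2* was called in 13 of 15 pairs.

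*Npr3*, the clearance receptor, was highest in heart. It stood at 10.86, 16.67 and 29.22 FPKM in female and at 15.71 and 10.46 in male heart, and every heart library was above every library of the other tissues, the highest of which was 5.856. The heart mean was 16.58 ± 7.595 (SD, n = 5), or 13.42 ± 3.222 (n = 4) without female heart replicate 3, the highest of the hearts. The ovary libraries were at 2.746, 3.65 and 5.856 and the testis libraries at 2.507, 2.507 and 3.134. Cerebellum ran from 1.429 to 3.848 (median 2.273), brain from 1.462 to 2.942 (median 2.212) and colon from 0.2662 to 0.9585 (median 0.8263).

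Heart was above ovary by 2.74 ± 0.327 (adjusted P = 1.38e-07), or by 2.68 without female heart replicate 3, and brain was above colon by 1.69 ± 0.245 (adjusted P = 1.04e-06). Ovary, testis, cerebellum and brain were not called apart in any of their 6 pairs with TMM factors. With RLE size factors or DESeq2 testis was called against brain and cerebellum, and on library totals ovary was. The order of ovary and testis changed with the scale, with ovary higher on library totals (4.084 against 2.716 FPKM) and both near each other with TMM factors (-0.03 ± 0.324, adjusted P = 0.95). *Npr3* was called in 9 of 15 pairs, the 5 with heart and the other 4 with colon.

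The index tau, which is 0 for a gene at equal mean FPKM in all tissues and 1 for a gene found in 1 tissue, summarised these patterns. It was 0.9998 for *Nppb*, 0.9994 for *Nppa* (0.9946 without female heart replicate 3), 0.8835 for *Npr1*, 0.8527 for *Npr3*, 0.7637 for *Nppc* and 0.6395 for *Npr2*. With TMM library sizes tau of *Npr2* was 0.4898, and that of *Npr3* (0.8922) was above that of *Npr1* (0.8237).

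The receptors made up different mixtures in each tissue. As shares of the FPKM summed over the 3 receptors, *Npr2* took most of the sum in brain (mean 69.4%, 65.97 to 75.87), cerebellum (62.7%, 56.85 to 65.9) and colon (62.9%, 52.89 to 76.08). *Npr1* took most in ovary (65.3%, 59.41 to 75.46) and testis (70.3%, 67.46 to 71.75). *Npr3* took the largest share in heart (54.7%, 47.76 to 58.53, with a mean of 53.8% without female heart replicate 3), where female heart replicate 3 had the highest sum of the 3 receptors, 49.92 FPKM against 19.3 to 29.6 in the other hearts. *Npr1* took the smallest share in brain (7.5%) and *Npr3* the smallest in ovary (6.92%). The summed receptor level was 55.71 to 60.69 FPKM in ovary, above the 5.311 to 17.82 of all libraries of brain, cerebellum, colon and testis.

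**Figure D2:**
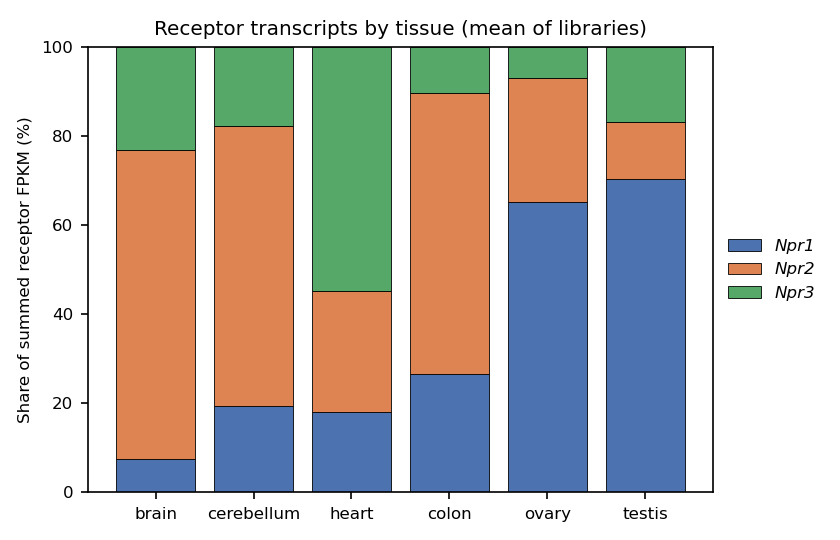
Share of each receptor gene in the FPKM summed over *Npr1*, *Npr2* and *Npr3* (vertical axis, percent), as the mean of the libraries of each tissue, with segments stacked to 100%. *Npr2* is the largest segment in brain, cerebellum and colon, *Npr3* in heart (54.7%) and *Npr1* in ovary (65.3%) and testis (70.3%).

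Heart was then compared with the average of the 5 other tissues in the same fit. Of the 6 genes, 5 were called, all higher in heart. Over all genes tested, 51.7% were called in this comparison, 22.1% higher and 29.6% lower in heart, and the median difference of all genes was -0.549. *Nppa* was higher by 9.98 ± 0.507 (adjusted P = 5.1e-15) and *Nppb* by 13.4 (adjusted P = 7.71e-18), a value that depends on groups without counts. *Npr3* was higher by 3.37 ± 0.171 (adjusted P = 5.24e-15). *Npr1* and *Npr2* were higher by 0.75 ± 0.158 (adjusted P = 0.000228) and 0.83 ± 0.127 (adjusted P = 3.28e-06), while both had their highest mean in ovary. Against brain, cerebellum and colon alone, *Npr1* was higher in heart by 2.24 ± 0.153 (adjusted P = 1.63e-12). Against all other tissues, the gonad included, it was higher by 1.31 in female libraries alone and by 1.47 in male libraries alone.

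Without female heart replicate 3, the same 5 genes were called and 53.5% of all genes were. *Nppa* was then higher by 8.46 ± 0.279 (adjusted P = 5.42e-19), *Nppb* by 13.5 (adjusted P = 4.16e-19), *Npr1* by 0.54 ± 0.146 (adjusted P = 0.00265), *Npr2* by 0.92 ± 0.127 (adjusted P = 8.07e-07) and *Npr3* by 3.31 ± 0.176 (adjusted P = 1.21e-14). On library totals without TMM factors, which put the median of all genes at -1.03, *Npr1* was higher by 0.30 and was not called (adjusted P = 0.254), and *Npr2* was higher by 0.30 (adjusted P = 0.0464). In female libraries alone, *Npr2* was not called (0.39 ± 0.183, adjusted P = 0.0928). *Nppc* was not called (adjusted P = 1), in a fit where 3 of its groups had no count. DESeq2 called it lower in heart, by 3.12 on the log2 scale (adjusted P = 0.00035).

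**Figure D3:**
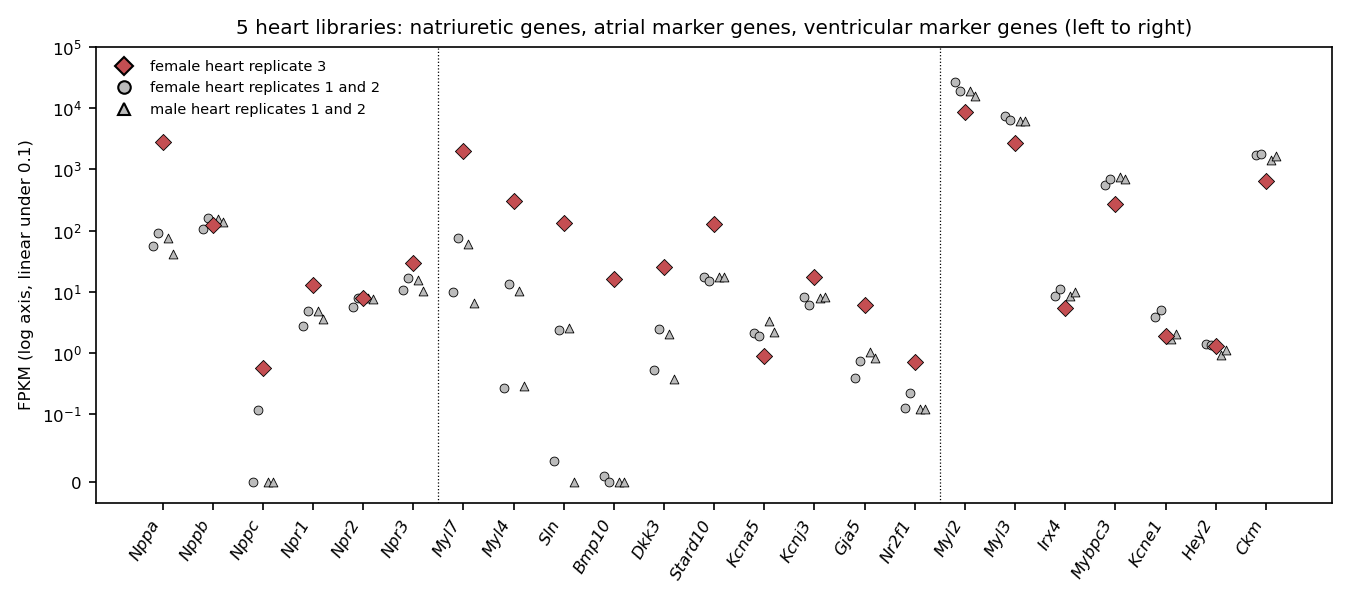
FPKM in the 5 heart libraries (vertical axis, logarithmic above 0.1 and linear below) of the 6 natriuretic genes, 10 atrial and 7 ventricular marker genes, with diamonds for female heart replicate 3, circles for the other female and triangles for the male libraries. The diamond is above all other points for *Nppa* (2770 against at most 90.09) and 9 of the 10 atrial genes and below all others for 5 of the 7 ventricular genes. For *Nppb* and *Npr2* it lies among them on this scale of library totals.

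The spread of *Nppa* among hearts was set beside genes of the atrium and genes of cardiac load. *Myl7*, the atrial regulatory light chain, was at 9.827, 76.35, 60.39 and 6.657 FPKM in female replicates 1 and 2 and male replicates 1 and 2, where *Nppa* was at 55.67, 90.09, 76.69 and 41.05. The atrial essential light chain *Myl4* was at 0.266, 13.26, 10.39 and 0.2928 in the same libraries. The 2 libraries with the higher *Nppa* were the 2 with the higher level of 4 of the 10 atrial genes (*Myl7*, *Myl4*, *Sln* and *Dkk3*) and not of the other 6. *Myh7* (the slow myosin chain), *Acta1* (skeletal actin) and *Ankrd1* (a nuclear protein induced by load), which are known to rise with *Nppa* and *Nppb* in a loaded heart, were at 14.09, 145.1 and 242.7 FPKM in female heart replicate 3, against 13.67 to 24.67, 159.4 to 440.3 and 313.7 to 534.5 in the other hearts. Of the whole list of 7 such genes, which includes *Nppb*, 1 was above, 2 were below and 4 were within the range of the other hearts. On library totals, the ratios of this library to the mean of the other hearts were 42.0 for *Nppa*, 3.16 for *Npr1*, 2.18 for *Npr3*, 1.07 for *Npr2* and 0.881 for *Nppb*. Among 20203 genes ranked from the highest ratio, these were at 246, 4128, 6832, 15179 and 17079. For *Nppc* no ratio is given, since it had 14 counts in this library and 0, 3, 0 and 0 in the others.

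Across the 15 pairs of tissues, 58 of the 90 tests of the 6 genes were called. Brain and cerebellum were the closest pair, with 1 of the 6 genes called (*Npr1*, higher in cerebellum by 1.79 ± 0.203, adjusted P = 1.57e-07), against 26.1% of all genes. Heart against brain, cerebellum and testis each had all 6 called, where 58.8%, 57.4% and 67.5% of all genes were called. Heart against colon and heart against ovary had 5 called each, against 53.9% and 44% of all genes, the exceptions being *Nppc* in colon and *Npr2* in ovary. Colon against brain, cerebellum, ovary and testis had 4 each, against 68.3%, 66.1%, 48% and 71.9% of all genes. These were the same 4 in each, *Nppc* and the 3 receptors. Testis against brain, cerebellum and ovary had 3 each (*Nppc*, *Npr1* and *Npr2*), against 71.5%, 71% and 64.3% of all genes. Ovary against brain and cerebellum had 2 each (*Npr1* and *Npr2*), against 56.8% and 53.5% of all genes. Leaving out female heart replicate 3 gave 61 called tests.

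Male and female libraries were compared within brain, cerebellum, heart and colon, and none of the 24 tests was called by edgeR or by DESeq2. At an unadjusted P under 0.05, edgeR gave 4 of 24 and DESeq2 gave 5. Few genes of any kind were called in these comparisons, 0.0368% in brain, 0.0301% in cerebellum, 0.0635% in heart and 0.324% in colon. The largest difference with counts in both sexes was that of *Nppa* in heart, lower in male by 3.41 ± 0.912 on the log2 scale (adjusted P = 0.184). Female heart averaged 971.8 ± 1557 FPKM (SD, n = 3) and male heart 58.87 ± 25.2 (n = 2), and the female mean rests on replicate 3. Without that library the difference was -0.37 ± 0.492 (adjusted P = 1), where 0.0537% of all genes were called. When female heart replicate 1 or 2 was left out instead, it was called (-3.94 and -3.92, adjusted P = 0.0158 and 0.0217).

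The other 3 unadjusted values under 0.05 rested on few counts. *Nppb* had 1, 3 and 2 counts in the female and 0 in each male cerebellum library, and 4, 2 and 0 counts in the female and 0 in each male colon library. *Nppc* had 0, 3 and 14 counts in the female and 0 in each male heart library, and 14 of those 17 counts came from replicate 3. Their adjusted P ran from 0.306 to 1 by edgeR. The receptors differed by 0.58 or less on the log2 scale between sexes in each of the 4 tissues, with standard errors of 0.216 to 0.361, and *Npr3* was lower in male in all 4 (by 0.25 to 0.54, 0 of 4 called). The interaction of sex with tissue was called for 0 of the 6 genes by either tool, against 0.0167% of all genes, with 1 (*Nppb*, adjusted P = 0.626) under an unadjusted P of 0.05 by edgeR and 2 by DESeq2.

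**Figure D4:**
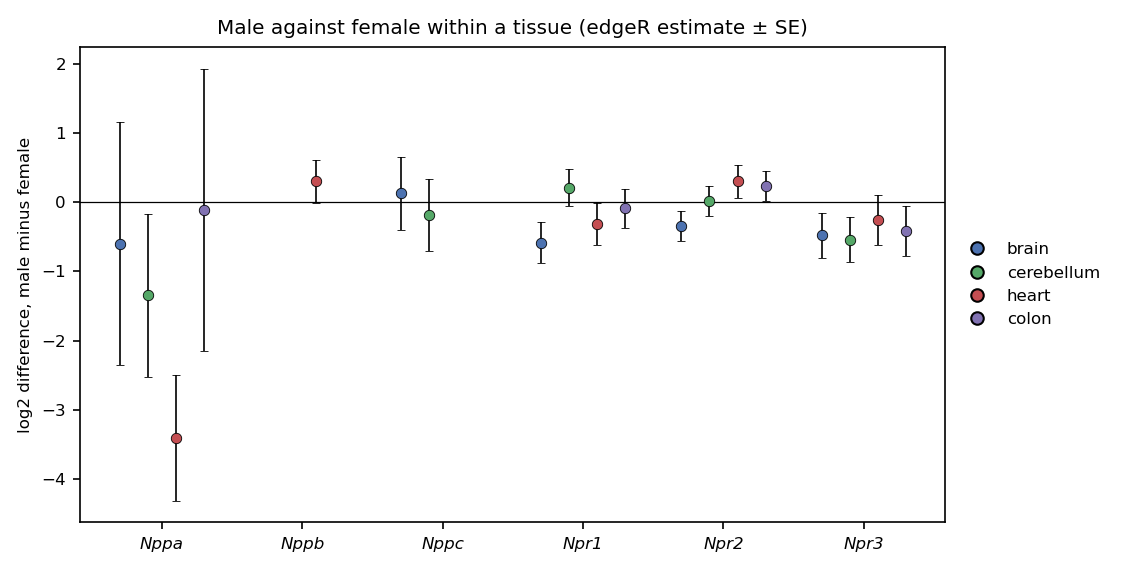
Log2 difference of male minus female (vertical axis, edgeR estimate with its standard error as bars) for each gene in brain, cerebellum, heart and colon, leaving out differences where a sex had no count. The bars of *Nppa* are the widest, its heart value of -3.41 rests on female heart replicate 3, and the receptor values lie within 0.58 of 0.

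The rest of the pathway was described in the comparison of heart with the other tissues, by counts and the median of each list beside the median of -0.549 over all genes, of which 22.1% were called higher and 29.6% lower. Without female heart replicate 3, the 17 genes given below with an adjusted P were all called with the same sign. Of these, 2 moved by more than 1.5-fold, *Gucy2e* (to -7.10, with no count left in heart) and *Prkg2* (to -4.18). Of 8 measured genes for processing and clearance of the peptides, 4 were higher in heart, 1 was lower and 3 were not called (median 0.538, or 0.273 without female heart replicate 3). On library totals 3 were higher and 2 lower (median 0.0843, all genes -1.03). *Corin*, the protease that cuts pro-ANP on the heart muscle cell, was higher by 6.30 ± 0.197 (adjusted P = 2.98e-19), with 16.7 to 25.2 FPKM in the heart libraries and at most 6.53 elsewhere. Female heart replicate 3, the highest for *Nppa*, was the lowest heart for *Corin* (16.74, against 18.01 to 25.16). *Dpp4*, a peptidase that trims BNP, was higher by 1.91 ± 0.362 (adjusted P = 6.32e-05), although its mean was higher in colon (36.2) than in heart (17.4). *Pcsk5*, a proprotein convertase, was lower by 0.79 ± 0.196 (adjusted P = 0.00124).

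Of 13 genes for other guanylyl cyclases, their ligands and nitric oxide synthases, 2 were higher, 9 lower and 2 not called (median -1.76, or 8 lower and -1.88 without female heart replicate 3). *Nos3*, the endothelial nitric oxide synthase, was higher by 2.98 ± 0.183 (adjusted P = 2.41e-13), and *Nos2*, the inducible one, by 2.56 ± 0.53 (adjusted P = 0.000184), with a higher mean in ovary (4.88 FPKM) than in heart (1.17). *Gucy2e*, a guanylyl cyclase of photoreceptors, was lower by 6.08 ± 0.843 (adjusted P = 9.68e-07) and at most 0.862 FPKM in any library. It had at most 1 count in a heart library and none in male heart, so this size depends on groups without counts. *Gucy2c*, the gut receptor of guanylin, was lower by 4.55 ± 0.557 (adjusted P = 1.02e-07) and averaged 60.2 FPKM in colon.

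Of 8 measured effectors of cyclic GMP, 2 were higher, 4 lower and 2 not called (median -0.181), while on library totals 2 were higher and 6 lower (median -0.715). The higher genes were the cyclic nucleotide-gated channel *Cnga3* (3.81 ± 0.366, adjusted P = 3.38e-09, heart mean 0.549 FPKM) and the pacemaker channel *Hcn4* (3.49 ± 0.197, adjusted P = 4.64e-14, heart mean 0.965). *Cnga3* had a higher mean in testis (0.643) and no count in ovary, on which its size depends. *Hcn4* reached 1.09 FPKM in a library outside heart. Of the 8 effectors, 7 had their highest mean outside heart. *Prkg2*, a cyclic GMP-dependent kinase, was lower by 3.29 ± 0.459 (adjusted P = 8.66e-07), and *Ppp1r12a*, a subunit of myosin phosphatase, was lower by 0.61 ± 0.129 (adjusted P = 0.000216).

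Of 11 measured phosphodiesterases that act on cyclic GMP, 2 were higher, 7 lower and 2 not called (median -1.32), and 8 were lower both without female heart replicate 3 and on library totals. None of the 11 had its highest mean FPKM in heart. *Pde3a*, which cyclic GMP inhibits, was higher by 2.67 ± 0.123 (adjusted P = 7.21e-16, heart 13.2 to 15.8 FPKM), although colon had the higher mean (24.1), and *Pde1c* was higher by 2.33 ± 0.135 (adjusted P = 7.58e-14). *Pde6a*, of rod photoreceptors, was lower by 5.14 ± 0.75 (adjusted P = 2.09e-06), a size that depends on male heart, which had no count. *Pde6c*, of cones, had no count in heart and was called lower (adjusted P = 0.000475), with at most 0.302 FPKM in any library.

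Of 14 cardiac transcription factors, which include known regulators of *Nppa* and *Nppb*, 12 were higher, 0 lower and 2 not called (median 3.24). On library totals 10 were higher and 1 was lower. Only 7 of the 14 had their highest mean FPKM in heart. *Gata4* averaged 49.4 FPKM in ovary, where *Nppa* and *Nppb* were near or at 0, against 19.61 in heart. *Tbx20* was higher by 12.0 ± 0.359 (adjusted P = 1.89e-17, heart mean 10.7 FPKM) and *Nkx2-5* by 11.6 ± 0.383 (adjusted P = 4.73e-12, heart mean 12.4), with at most 0.0831 and 0.0539 FPKM in any library of another tissue. *Tbx20* had no count in testis and *Nkx2-5* none in brain, colon or ovary. Both sizes and their SE therefore depend on groups without counts. The genes *Pcsk6*, *Kcnma1*, *Pde2a* and *Pde10a* of these lists could not be read from a locus of their own and were not tested.

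Genes with a pattern like that of each member were named by Pearson's r of log2 CPM over the 29 libraries, which share tissues and depths, so that r describes these libraries and carries no test. *Nppa* was most like *Gm13054* (r = 0.985), *Gm6416* (0.948), *Gm43050* (0.941), the muscle gene *Lmod2* (0.940) and *Nppb* (0.939). *Nppb* was most like *D830005E20Rik* (0.991), *Nkx2-5* (0.991), *Gm43050* (0.991), *Csrp3* (0.989), a protein of the muscle Z-disc, and *Gm6416* (0.987). Without female heart replicate 3, *Gm13054*, *Gm6416* and *Lmod2* stayed among the first 5 for *Nppa*, and *Nkx2-5*, *D830005E20Rik* and *Gm43050* among those for *Nppb*.

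*Nppc* was most like *Myh10* (0.950), the non-muscle myosin heavy chain IIB, *Hs6st2* (0.949), *Gm26666* (0.947), *Klhl5* (0.941) and *Slc46a1* (0.939), the folate transporter. *Npr1* was most like *Gm16048* (0.986), *Ltbp2* (0.946), an unnamed locus (PB.10528, 0.942), *Ajuba* (0.942) and *Ss18* (0.926). *Npr2* was most like *Slc9a3r2* (0.956), *Fam43a* (0.936), *Arhgef40* (0.934), *Mpdz* (0.922) and *Ramp2* (0.920). The genes most like *Npr3* were *Aldh6a1* (0.944), *Pm20d2* (0.937), *Acadsb* (0.932), *Coq8a* (0.930) and *Ivd* (0.928), of which *Aldh6a1*, *Acadsb* and *Ivd* encode mitochondrial enzymes of branched amino acid breakdown and *Coq8a* a factor of coenzyme Q synthesis. Without female heart replicate 3, *Acadsb* and *Coq8a* left the first 5 of *Npr3* and *Mtrf1* and *Cmss1* entered, and *Klhl5* and *Slc46a1* left those of *Nppc*, where *Prmt6* and *Kcnip3* entered. Between members, r was 0.939 for *Nppa* and *Nppb*, 0.822 for *Nppb* and *Npr3* and 0.814 for *Nppa* and *Npr3*. The peptide and receptor of the CNP pair, *Nppc* and *Npr2*, had an r of 0.382. *Nppa* and *Npr1* had an r of 0.291.

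The first gene in the lists of *Nppa* and *Npr1* overlaps it on the opposite strand. *Gm13054* shares 532 exon bases with *Nppa* and stood at 748 FPKM in female heart replicate 3, at 9.107 or more in all heart libraries and at 0.9455 or less elsewhere. Its counts were 0.2091 to 0.3694 of those of *Nppa* across the heart libraries. *Gm16048* shares 402 exon bases with *Npr1* and was highest in ovary (60.05 to 88.73 FPKM) and testis (20.68 to 26.71), with counts of 0.1071 to 0.3444 of those of *Npr1* over all 29 libraries. The deposited model of *Clcn6*, a chloride transporter gene, shares 327 bases with *Nppa* on the opposite strand and stood at 47.12 FPKM in female heart replicate 3, at 1.657 to 2.96 in the other hearts and at 9.352 to 13.25 in brain and cerebellum, where its counts were 34.87 to 598.3 times those of *Nppa* in the libraries with an *Nppa* count. *Npr2* overlaps *Gm12473* on the opposite strand (372 bases, counts of 0.05682 to 0.157 of those of *Npr2*) and *Npr3* overlaps *Gm5144* (321 bases, at most 0.05172 of the counts). On the same strand, *Npr2* shares 88 bases with the microRNA gene *Gm25262*, which had at most 1 count in a library. No source used here says whether reads were counted by strand, so reads of a gene and its opposite-strand partner cannot be told apart. *Nppb* and *Nppc* share no exon bases with another gene.

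**Figure D5:**
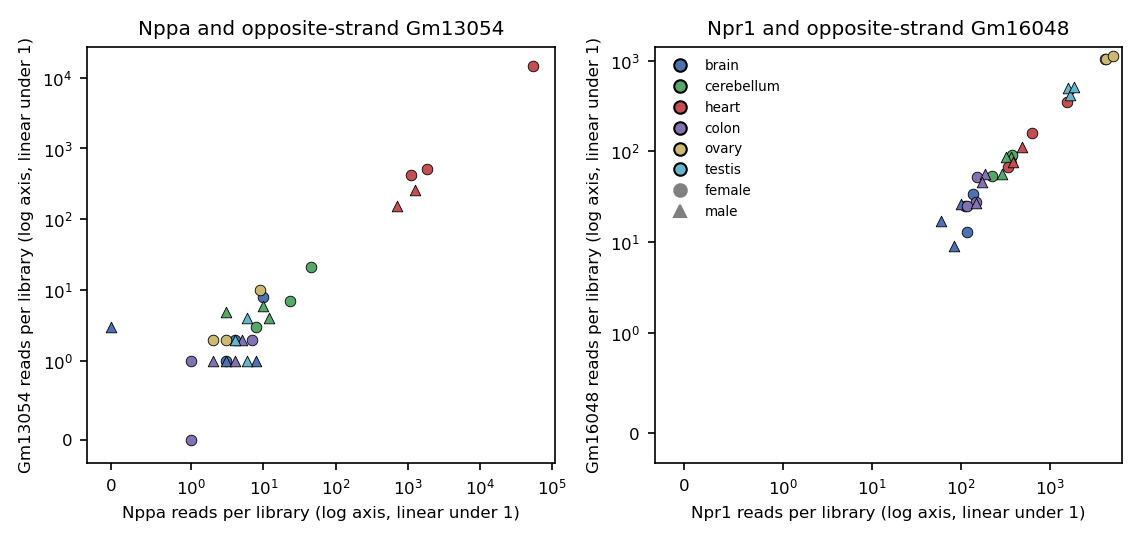
Counts per library of *Nppa* and *Gm13054* (left) and of *Npr1* and *Gm16048* (right), members on the horizontal and opposite-strand genes on the vertical axis, all logarithmic above 1 and linear below, with a colour for each tissue. In the heart libraries *Gm13054* has 0.2091 to 0.3694 of the *Nppa* counts, and over all libraries *Gm16048* has 0.1071 to 0.3444 of the *Npr1* counts.

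*Nppa* and *Nppb* neighbour each other, and the nearest other protein-coding genes were set beside the members. On the far side of *Nppb*, *2510039O18Rik* averaged 5.448 FPKM in heart and was highest in colon (13.88). *Cops7b* and *Dis3l2*, which flank *Nppc*, averaged at least 4.021 FPKM in each tissue, colon included, where *Nppc* had no count. *Ints3* and *Ilf2*, on either side of *Npr1*, were like it highest in ovary (21.7 and 54.53), and their lowest tissue means were 7.737, in heart, and 16.94, in colon. *Spag8* ends 98 bases from *Npr2* on the opposite strand and averaged 24.39 FPKM in testis, where *Npr2* was lowest, and at most 1.449 in any other tissue. *Sub1* and *Tars*, on either side of *Npr3*, were highest in brain (52.17) and ovary (30.56).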

How the data were processed

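The authors deposited raw counts per gene, used here as they stand, and an annotation with gene models on GRCm38.p6. Per the labels, the libraries were strand-specific, and the submitters' processing notes name FastQC 0.11.8, MultiQC 0.9, HISAT2 2.0.5 and featureCounts 1.6.3. The paper states that uniquely mapped reads were kept, and whether counting used the strand is not given in the sources used here. All 29 count columns were used.

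Counts were tested with edgeR 4.0.16 (R 4.3.3) in one fit over 29 libraries with a mean per group, TMM normalization and edgeR's filter by group, which left 29911 genes. Contrasts were heart against the average of the other tissues, 15 tissue pairs, male against female in 4 tissues and the interaction of sex with tissue. DESeq2 1.42.0 was an alternative. Libraries held 11742417 to 36194255 counts, and the limit of a library without counts was set at 3 counts. The 28 pairs of libraries within a group differed beyond sampling noise (chi-square per gene of 10.1 to 286). RefSeq promoters and GENCODE M21 served as references.

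The members and lists were chosen with earlier results of these data known. Named genes were the 6 members, the 2 largest called differences in each direction of each pathway list, the 5 genes most like each member, overlapping genes and the nearest protein-coding neighbours. Atrial, ventricular and stress genes were named beside the heart values, and *Gdf9*, *Gata4* and genes that entered without a library after their values were seen. Library totals without TMM factors, leaving out libraries for levels and lists, and markers of adipocytes, lung epithelium and B and plasma cells were added after seeing the data.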

Additional observations from a re-analysis of the deposited data

Results flagged for a closer look

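Each member's FPKM was checked in each tissue with 4 to 6 libraries (heart, brain, cerebellum and colon) for a library whose gap to the nearest other is large for the range of the tissue. Of 21 groups checked, 7 had such a library, and chance gives about 1 in 20. Another 3 groups had every library at or under 3 counts and were left out, and ovary and testis, with 3 libraries each, were not tested.

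Of the 7, 3 were female heart replicate 3, which was the highest heart for *Nppa* (2770 FPKM, others at most 90.09), *Nppc* (0.5644, others at most 0.1159) and *Npr1* (12.78, others at most 4.92). Female heart replicate 1 was the lowest heart for *Npr2* (5.694, others at least 7.775). Female cerebellum replicate 3 was the lowest cerebellum for *Npr1* (1.611, others at least 2.589), while it was the highest for *Nppa* (1.992) and *Nppc* (3.502). Male colon replicate 2 was the lowest colon for *Npr3* (0.2662, others at least 0.7086). Female colon replicate 1 was the highest colon for *Nppb* (0.4362), on 4 counts.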

How the results depend on the processing

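The number of members called in heart against the other tissues was 5, from 5 to 5 when each library was left out in turn, and 4 on library totals or in female libraries alone, 5 in male libraries alone and 6 with DESeq2. The 58 called tissue pairs became 55 to 61 with a library left out, 59 with other size factors (RLE), library totals or DESeq2, and 55 without the filter on low counts. Between sexes, 0 to 1 of 24 tests was called with a library left out, and the interaction gave 0 to 0. The highest tissue stayed the same for 5 to 6 of the 6 members, and of the pathway genes, 43 were called, or 37 to 43 with a library left out. With the replicate block, 5, 56, 0 and 0 were called. The 56 pairs of same-numbered libraries had a median r of -0.000567 between their deviations (-0.259 to 0.0931), and 9 of 29 correlated best with their own number. Whether libraries share an animal cannot be settled this way, since the r that a shared animal would give is not known. The library codes of the labels without their last digit, taken within each sex as a block, gave 5, 56, 0 and 0 calls, and 53 pairs of libraries that shared this value had a median r of 0.0141 (-0.099 to 0.223).

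Of 608 values of 45 single comparisons under alternatives, 544 kept direction and call, 35 lost and 4 gained the call and 25 changed sign. Of the comparisons that changed sign, *Npr2* in cerebellum against heart was the one that had been called, and the cause of the changes was not tested. On library totals, *Npr2* in cerebellum against heart was 0.18, *Npr3* in ovary against testis 0.59 (0.17 without the filter on low counts), and male against female in colon 0.041 for *Nppa* (0.18 with the replicate block) and 0.055 for *Npr1*. Leaving out each library gave -0.38 to 0.67 for *Nppc* in ovary against cerebellum, and for *Npr3* -0.41 to 0.22 in ovary against testis and -0.10 to 0.15 in cerebellum against brain. For male against female it gave -1.84 to 0.10 for *Nppa* in brain, -0.60 to 1.51 for *Nppa* in colon, -0.083 to 0.32 for *Nppc* in brain, -0.040 to 0.38 for *Npr1* in cerebellum, -0.57 to 0.11 for *Npr1* in heart, -0.30 to 0.072 for *Npr1* in colon and -0.064 to 0.083 for *Npr2* in cerebellum. Depth limits *Nppb* outside heart and *Nppc* in heart and colon, where 0 to 14 counts a library were found.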
